A study of Mus musculus with 4 samples.

Results

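Genes that move heme and its precursors or take heme apart were followed through red cell maturation in mouse fetal liver. The list held 9 symbols, chosen by name, and 7 of them were found among the 19564 gene symbols of the files: Abcg2, Abcb6, Abcb10, Slc25a38, Hmox1, Hmox2 and Blvrb. Flvcr1 and Flvcr2 were not listed under these symbols and were dropped as members. All 7 members passed a filter of at least 1 RPKM in at least 1 library, as did 9942 genes in all. RPKM is the number of reads on a gene per kilobase of its length and per the size of the library, so levels can be compared between genes.

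The cells came from livers of mouse embryos, which the study describes at day 14.5 of gestation. They were sorted without culture by TER119, an antigen gained by maturing red cell precursors, and CD71, the transferrin receptor, which is gained and then lost. R2 held proerythroblasts and early basophilic erythroblasts, R3 early and late basophilic ones, R4 mostly polychromatophilic and orthochromatophilic ones, and R5 late orthochromatophilic erythroblasts with reticulocytes. Each population gave 1 polyA-enriched library, with the strain, sex and number of embryos not given in the sources used here. There is thus no replicate check and no p-value, and a gene is counted as higher or lower at a ratio of RPKM + 1 of 2-fold or more. All gates can hold a mixture of stages.

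Heme is made partly in mitochondria and partly in the cytosol, so its precursors cross the mitochondrial membranes several times. Free heme and porphyrins are toxic, and red cell precursors, which make more heme than most cells, depend on carriers that bring in substrates and export the surplus. Heme oxygenases open the heme ring to biliverdin, carbon monoxide and iron, and biliverdin reductases turn biliverdin into bilirubin.

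Depth and composition set what these values can show. The step size of the values implied between 20723957 reads in R5 and 27419797 reads in R4. With the length of the longest annotated protein-coding transcript, the members were backed by about 109 reads (Hmox2 in R5) to about 42657 reads (Blvrb in R3), and the 95% intervals below are exact Poisson or binomial ones on these approximate reads that cover counting error only. Globin transcripts took 81.9% of the summed RPKM in R5 and 5.52% in R2, and RPKM is a share of the whole library. Comparing R5 with R2, the median log2 ratio of the 9942 genes was -1.65. Values were therefore also rescaled, first by the median of gene ratios (median scaling) and second by removing the globin genes (globins removed), and that median was then -0.42 by the first and -0.68 by the second. All 9 erythroid markers listed reached 1 RPKM in every library. Granulocyte markers, 10 of 10 detected, summed to between 237.6 and 472.0 RPKM in R3, R4 and R5, against 6129 RPKM in R2, and their part in any difference from R2 was not tested. The sums for 6 megakaryocyte markers lay between 23.0 and 67.3 RPKM. Fewer cells of a type and less RNA per cell cannot be told apart in such bulk samples.

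The carriers of heme precursors were highest in R3 as deposited, and so was Blvrb. Of the 7 members, 6 had their highest RPKM in R3 and Hmox2 had its highest in R2, while 8.75% of all genes tested were highest in R3 and 86.2% in R2. The place of the peak depended on the scaling. With median scaling 5 members were highest in R4, with globins removed 3 were highest in R3 and 2 in R4, and under both rescalings Hmox1 was highest in R5. Hmox2 was highest in R2 under all 3 scalings, and R2 held the lowest value of the other 6 members under both rescalings.

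**Figure D1:**
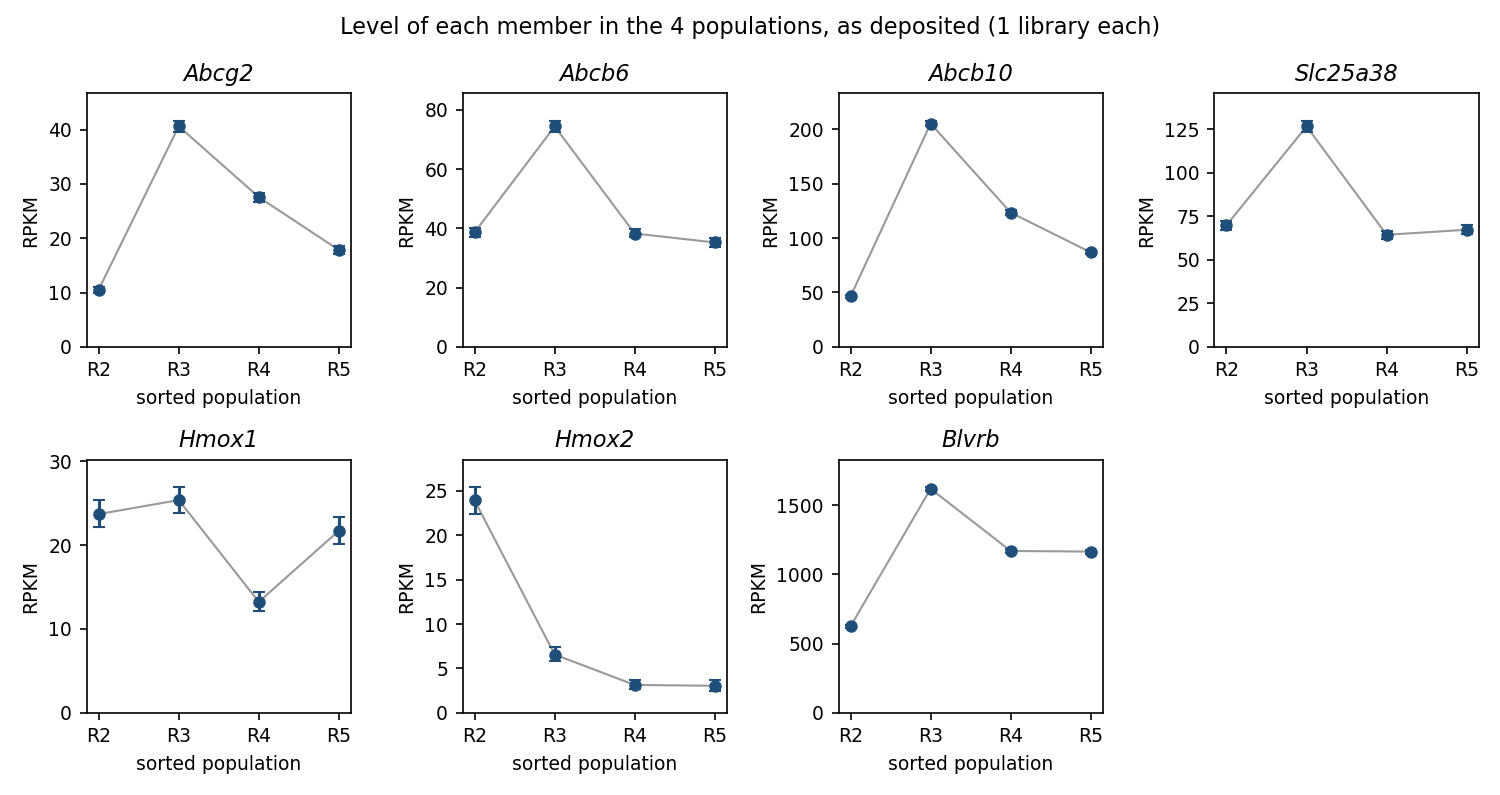
RPKM of each of the 7 members (vertical axis, as deposited, from 0) in the 4 sorted populations (horizontal axis), 1 library each, with 95% Poisson intervals from approximate read numbers as bars. As plotted the carriers and Blvrb are highest in R3 (in R4 with median scaling) and Hmox1 is lowest in R4 at 13.2 RPKM (in R2 with either rescaling), while Hmox2 is at 3.05 RPKM in R5 and 23.9 RPKM in R2.

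Abcb10 encodes a transporter of the inner mitochondrial membrane that is needed for hemoglobin production and stabilizes the mitochondrial iron importer. It stood at 46.3 RPKM in R2, 205 RPKM in R3, 123 RPKM in R4 and 86.8 RPKM in R5. R3 was the high library and R2 the low one. The R3 value was 4.44 times that of R2, with a counting interval of 4.30 to 4.58, and its log2 ratio of 2.13 stood above 99.1% of the genes tested. From R3 onwards the order as deposited was R3, R4 and R5, with R4 at 0.601 times R3 (0.589 to 0.614) and R5 at 0.704 times R4 (0.684 to 0.723). The log2 ratio of R4 against R3, -0.73 as deposited, turned to 0.35 with median scaling, while R5 stayed below R4 under both rescalings.

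Slc25a38 encodes the mitochondrial carrier that brings in glycine, a substrate of the first step of heme synthesis, and its loss causes sideroblastic anemia in humans. Its levels were 69.9 RPKM in R2, 127 RPKM in R3, 64.4 RPKM in R4 and 67.3 RPKM in R5. R3 alone was high, and the other populations lay close together. R5 was at 0.963 times R2, with an interval of 0.912 to 1.02, and at 1.05 times R4, with one of 0.991 to 1.10, so neither pair differed beyond counting error as deposited. Both signs turned when scaled by the median, to 1.52 against R2 and -0.30 against R4. R3 against R2 gave a log2 ratio of 0.85, short of 2-fold as deposited, and was 1.71 after median scaling and 1.61 after removal of the globins.

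Abcb6 encodes an ATP-driven transporter that has been described as a porphyrin carrier and that bears a human blood group. It had a profile much like that of Slc25a38, at 38.7 RPKM in R2, 74.4 RPKM in R3, 38.3 RPKM in R4 and 35.3 RPKM in R5. As deposited R4 was at 0.989 times R2, with an interval of 0.939 to 1.04, a log2 ratio of -0.015 that turned to 1.90 after median scaling and 1.40 after removal of the globins. R3 against R2 gave a log2 ratio of 0.93, and 1.77 with median scaling. Over the 4 libraries the Euclidean distance between the log2 profiles of these 2 members, each centred on its own mean, was 0.14, the smallest among the pairs of members.

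Abcg2 encodes a plasma membrane transporter that exports porphyrins along with many drugs. It was at 10.5 RPKM in R2, 40.6 RPKM in R3, 27.6 RPKM in R4 and 17.8 RPKM in R5. R2 was the lowest library and R3 the highest, 3.85 times R2 with an interval of 3.63 to 4.09. The log2 ratio of R3 against R2, 1.85, stood above 98.7% of the genes tested. R5 was at 0.647 times R4 (0.613 to 0.681), and 2.98% of genes tested had a lower ratio in that step. With median scaling the log2 ratio of R5 against R4 was -0.97. The distance from Abcg2 to Abcb10 was 0.21.

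The plasma membrane heme exporter gene Flvcr1 could be traced only through a synonym. The RefSeq table gives Mfsd7b as a synonym of Flvcr1 and Mfsd7c as one of Flvcr2, and both synonyms are in the files. Mfsd7b was at 4.45 RPKM in R2, 0.91 RPKM in R3, 0.21 RPKM in R4 and 0.39 RPKM in R5, from about 413, 94, 23 and 33 reads. It was thus highest in R2, as were Hmox2 and 86.2% of all genes tested. It was at least 2-fold lower in R3 than in R2, as were 55.1% of all genes. Its log2 ratio for that step was -1.51, or -0.78 once scaled by the median, and 29.5% of genes tested had a lower one as deposited. At such low levels the added 1 RPKM shrinks the ratio. The plain RPKM ratio as deposited was 0.204 (0.161 to 0.256), and adding 0.1 RPKM instead gave a log2 ratio of -2.17. Within a library Abcg2 was at between 44.6 and 131 times Mfsd7b in R3, R4 and R5, against 2.37 times in R2. Mfsd7c, between 0.02 and 0.16 RPKM, rested on 2 to 12 reads and did not pass the filter. Flvcr1 and Flvcr2 have since also been described as choline transporters.

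Promoter sequences were available from the RefSeq table (build GRCm38.p6) for 6 of the 7 members, with 11 annotated starts. Hmox1 had no entry. Abcg2, highest in R3 as deposited, has 3 starts that are not shown. The 250 bases before the start are shown for 4 other members highest in R3, Abcb6, Slc25a38, Abcb10 and Blvrb (for Blvrb the first of 2 starts). Each is written 5′ to 3′ on the strand of the gene, and capitals mark matches on either strand to the CACCC-type word CCNCNCCC or the antioxidant-type word TGACNNNGC. The windows lie at chr1:75180393-75180642 (minus strand) for Abcb6, chr9:120110132-120110381 (plus strand) for Slc25a38, chr8:123983123-123983372 (minus strand) for Abcb10 and chr7:27447728-27447977 (plus strand) for Blvrb. The files give no coordinates and 1 value per symbol, so which start was in use cannot be read from them.
Abcb6: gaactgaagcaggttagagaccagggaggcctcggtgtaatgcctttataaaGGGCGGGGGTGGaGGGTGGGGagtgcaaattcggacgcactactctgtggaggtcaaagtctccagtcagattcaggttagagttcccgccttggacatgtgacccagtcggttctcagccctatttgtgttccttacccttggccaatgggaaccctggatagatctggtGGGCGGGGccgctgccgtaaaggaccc
Slc25a38: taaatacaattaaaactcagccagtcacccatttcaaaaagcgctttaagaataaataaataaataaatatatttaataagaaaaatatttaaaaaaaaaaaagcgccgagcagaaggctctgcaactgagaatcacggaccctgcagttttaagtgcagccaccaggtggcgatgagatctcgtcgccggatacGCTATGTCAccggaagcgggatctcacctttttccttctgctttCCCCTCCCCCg
Abcb10: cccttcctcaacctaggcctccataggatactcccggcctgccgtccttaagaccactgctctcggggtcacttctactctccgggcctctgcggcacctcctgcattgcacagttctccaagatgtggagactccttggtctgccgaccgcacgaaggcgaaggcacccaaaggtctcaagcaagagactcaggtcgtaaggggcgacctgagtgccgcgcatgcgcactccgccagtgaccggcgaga
Blvrb: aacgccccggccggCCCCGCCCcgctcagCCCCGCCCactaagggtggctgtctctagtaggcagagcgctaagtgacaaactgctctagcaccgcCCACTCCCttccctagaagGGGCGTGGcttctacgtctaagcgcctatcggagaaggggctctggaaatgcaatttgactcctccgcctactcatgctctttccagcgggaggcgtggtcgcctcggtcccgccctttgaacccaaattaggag

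The CACCC-type word, the kind of site that Krüppel-like factors bind, was found 4 times each in the windows of Abcb6, where 2 of them overlapped, and Blvrb, 2 overlapping times in that of Slc25a38 and 0 times in that of Abcb10. Over all starts 7 of the 11 member windows held it, all 3 of Abcg2 among them, against 45.9% of the 32851 windows of the same length in the table. None of the 4 windows shown held a GATA word, searched on both strands as AGATAA or AGATAG and as TGATAA or TGATAG. Such a word was found in 2 of the 11 member windows, against 26.5% of all windows, and both belonged to other starts, 1 of Hmox2 and the second of Blvrb. The antioxidant-type word was found in 1 window, that of Slc25a38, against 10.2% of all windows. No match overlapped one of another kind, and a match describes letters only.

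Blvrb encodes biliverdin reductase B, which also reduces flavins and is an abundant enzyme of the red cell. It was by far the most abundant member, at 625 RPKM in R2, 1619 RPKM in R3, 1170 RPKM in R4 and 1165 RPKM in R5. These levels placed it at rank 70 of all symbols in R2, rank 13 in R3, rank 14 in R4 and rank 17 in R5. R3 was high and R2 low, with R3 at 2.59 times R2 (2.54 to 2.64), while R5 was at 0.996 times R4, with an interval of 0.980 to 1.01. The log2 ratio of R5 against R2 was 0.90 as deposited, short of 2-fold, and 2.50 with median scaling.

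Blvra, the reductase that acts on the main biliverdin isomer of adult tissue, is not a member and had another profile. Its levels were 21.3 RPKM in R2, 15.4 RPKM in R3, 5.38 RPKM in R4 and 6.84 RPKM in R5. The ratio of Blvrb to Blvra within a library, which no scaling between libraries touches, was 29.4 in R2, 105 at the R3 stage, 217 in R4 and 170 in R5. In every population Blvrb was therefore the reductase with the higher level per length.

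Hmox2, the heme oxygenase described as constitutive, was the only member that was lower by 2-fold or more in R5 than in R2 as deposited. It was at 23.9 RPKM in R2, 6.57 RPKM in R3, 3.14 RPKM in R4 and 3.05 RPKM in R5. R2 stood apart as the high library, and R5 was at 0.971 times R4, with an interval of 0.749 to 1.25, so the last 2 populations did not differ beyond counting error. R3 was at 0.275 times R2 (0.240 to 0.313) and R5 at 0.127 times R2 (0.103 to 0.155). Its log2 value for R5 against R2 was -2.62 as deposited, and 6.68% of genes tested had a lower one. Median scaling gave -1.19 and removal of the globins -1.52.

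Hmox1, the heme oxygenase that heme and oxidative stress induce, had another profile. Its levels were 23.7 RPKM in R2, 25.4 RPKM in R3, 13.2 RPKM in R4 and 21.7 RPKM in R5. R4 was the low library as deposited, R2 under either rescaling, and the deposited values of R2, R3 and R5 lay close together, with R3 at 1.07 times R2 (0.976 to 1.17) and R5 at 0.916 times R2 (0.828 to 1.01). Hmox1 was at 1.64 times its R4 level in R5, with an interval of 1.47 to 1.84. That log2 ratio, 0.68, stood above 84.3% of genes tested, and was 0.33 after median scaling and 0.50 after removal of the globins. Hmox1 was the only member whose log2 ratio of R5 against R4 lay above 0 under all 3 scalings.

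The balance of the 2 heme oxygenase genes differed between the populations. Hmox1 was at 0.990 times the level of Hmox2 in R2, 3.86 times in R3, 4.21 times in R4 and 7.12 times in R5. R2 thus held nearly equal levels per length, and R5 the widest gap. Por, the reductase that supplies electrons to heme oxygenases, was at 37.6 RPKM in R2, 8.93 RPKM in R3, 2.94 RPKM in R4 and 6.40 RPKM in R5.

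Macrophages of the fetal liver surround erythroblasts and express Hmox1 strongly, so their markers are given beside it. Of 12 macrophage markers, 10 reached 1 RPKM in some library, and their sum was 100.3 RPKM in R2, 58.6 RPKM in R3, 24.9 RPKM in R4 and 57.5 RPKM in R5. Vsig4 was listed at 0 in every library and Cd163 was at most 0.02 RPKM. The complement genes C1qa, C1qb and C1qc and the scavenger receptor gene Marco had their lowest deposited values in R4, as Hmox1 and 73.2% of all genes tested did, and were the 4 of 10 tested markers that R5 held at 2-fold or more of R4. C1qc, for one, was at 16.9 RPKM in R2, 14.7 RPKM in R3, 5.66 RPKM in R4 and 14.6 RPKM in R5, and the ratio of Hmox1 to C1qc was 1.40, 1.73, 2.34 and 1.49. Markers of other cells were counted over the same steps. As deposited, 32.1% of all genes were lower in R4 against R3 and 3.97% higher in R5 against R4. Of 8 hepatocyte markers, 8 were lower by 2-fold or more in R4 against R3 and 4 were higher in R5 against R4. Of 6 megakaryocyte markers 2 were lower and 4 higher. Of 10 granulocyte markers 3 were lower and 2 higher. The lower counts of these last lists were near the share of all genes. After median scaling 0 markers of these lists were lower in R4, beside 0.382% of all genes. In R5, 1 hepatocyte, 4 megakaryocyte and 0 granulocyte markers were then higher, beside 1.75% of all genes. Of the 10 tested macrophage markers 2 were then higher in R5, against 4 as deposited. The part of RNA from any of these cells in the Hmox1 levels was not tested. Csf1r, the receptor of a macrophage growth factor, was at between 3.18 and 6.46 RPKM in R3, R4 and R5, against 28.0 RPKM in R2. It too had its lowest deposited value in R4, as did Cd68 and Vcam1, while Emr1, Mrc1 and Timd4 were lowest in R5.

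**Figure D2:**
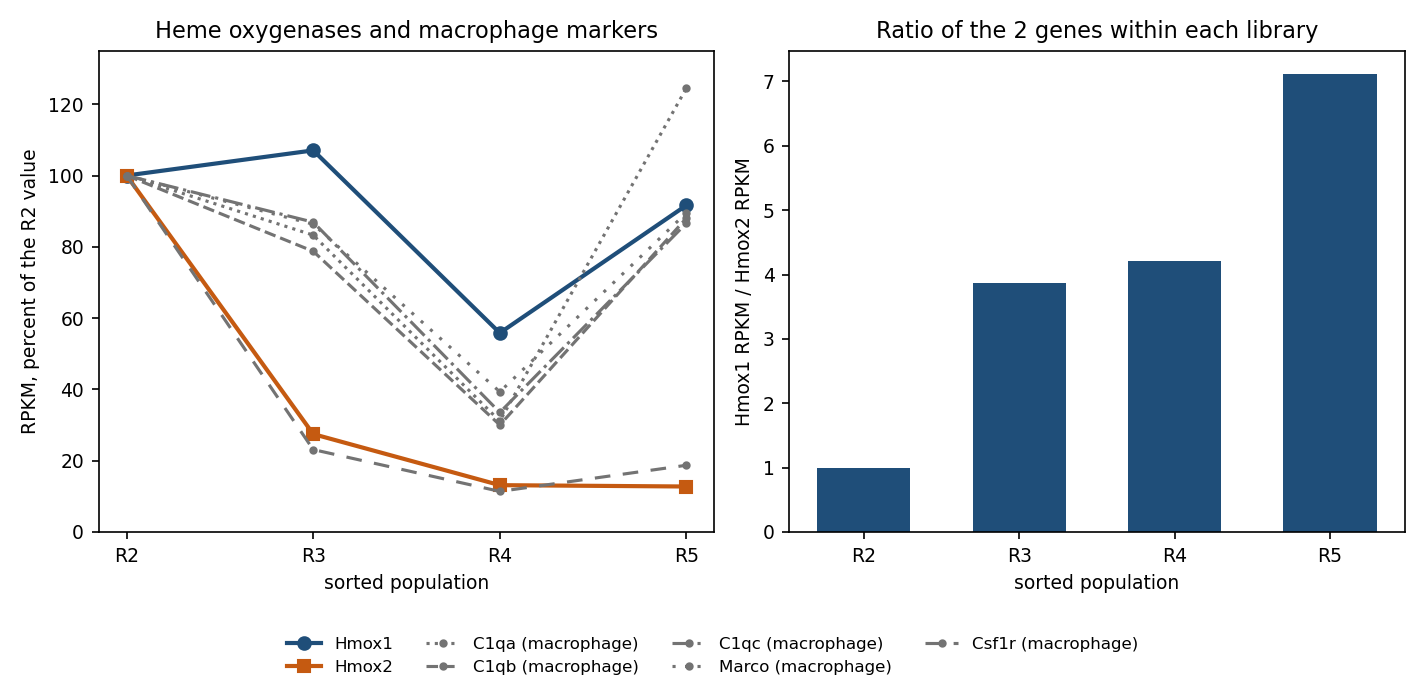
Left, RPKM as a percent of the R2 value (vertical axis) in the 4 populations for Hmox1, Hmox2 and the 5 macrophage markers with the highest mean RPKM, 1 library each. Hmox1 and all 5 markers drawn are lowest in R4 as deposited and higher in R5, and Hmox2 stays low from R3 on. Right, bars from 0 give the Hmox1 to Hmox2 ratio of RPKM within each library, 7.12 in R5 and 0.990 in R2.

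R5 against R2 spans the whole course. As deposited, 0 of 7 members were at least 2-fold higher, where 2.74% of all genes tested were, and 1 was lower, where 76.9% of all genes were. The member median of the log2 ratio was -0.054, beside -1.65 for all genes. With median scaling 6 were higher and 1 lower, beside 9.42% and 13.7% of all genes, and without the globins the counts were again 6 and 1, beside 7.35% and 29.8%. Under these rescalings Hmox2 was the lower one. The log2 ratios of Abcb6 (-0.13), Slc25a38 (-0.054) and Hmox1 (-0.12) turned positive under both, at 1.42, 1.52 and 1.40 with median scaling. R5 was also set against R3, so that R2 played no part, a comparison added once the values were known. There 0 members were 2-fold higher or more and 3 were lower (Abcg2, Abcb6 and Abcb10), beside 0.664% and 13.1% of all genes. None of the 3 calls held under a rescaling: 0 members were higher or lower after median scaling, beside 2.94% and 0.986% of all genes, and 0 after removal of the globins, beside 1.84% and 2.95%.

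The first step, R3 against R2, compares mostly basophilic cells with a population that still holds proerythroblasts. Abcg2, Abcb10 and Blvrb, 3 of the 7 members, were higher in R3 by 2-fold or more, and Hmox2, 1 of the 7, was lower. Hepatocyte markers moved with the higher members, since 7 of 8 were also higher by 2-fold or more in R3, and 8 of 8 after either rescaling. Their sum was 219 RPKM in R2, 536 RPKM in R3, 183 RPKM in R4 and 392 RPKM in R5, and their part in the member levels was not tested. Among all genes 3.81% were higher and 55.1% lower, and the median was 0.93 for the members and -1.09 for all genes. With median scaling 5 members were higher and 0 lower, beside 8.38% and 18.0% of all genes, and without the globins also 5 and 0, beside 7.81% and 22.8%. Abcb6 and Slc25a38 were the members added. Every member kept the sign of its ratio under both rescalings.

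The later steps were smaller. In R4 against R3, 0 members were at least 2-fold higher or lower, beside 0.493% and 32.1% of all genes, and all 7 ratios were below 0 as deposited, from -0.97 for Slc25a38 to -0.47 for Blvrb. With median scaling all 7 lay above 0, from 0.019 for Hmox2 to 0.62 for Blvrb, so the direction of this step cannot be read from the members. Slc25a38 thus lay nearest the threshold as deposited. For Hmox2, at -0.87, the plain RPKM ratio as deposited, without the added 1, was past 2-fold at 0.478 (0.390 to 0.585). In R5 against R4, 0 members were at least 2-fold higher or lower, beside 3.97% and 0.604% of all genes. The ratios ran from -0.60 for Abcg2 to 0.68 for Hmox1, with a median of -0.032 beside 0.27 for all genes. The 4 comparisons share libraries, R2 in 2 of them, so their values are not independent of each other.

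**Figure D3:**
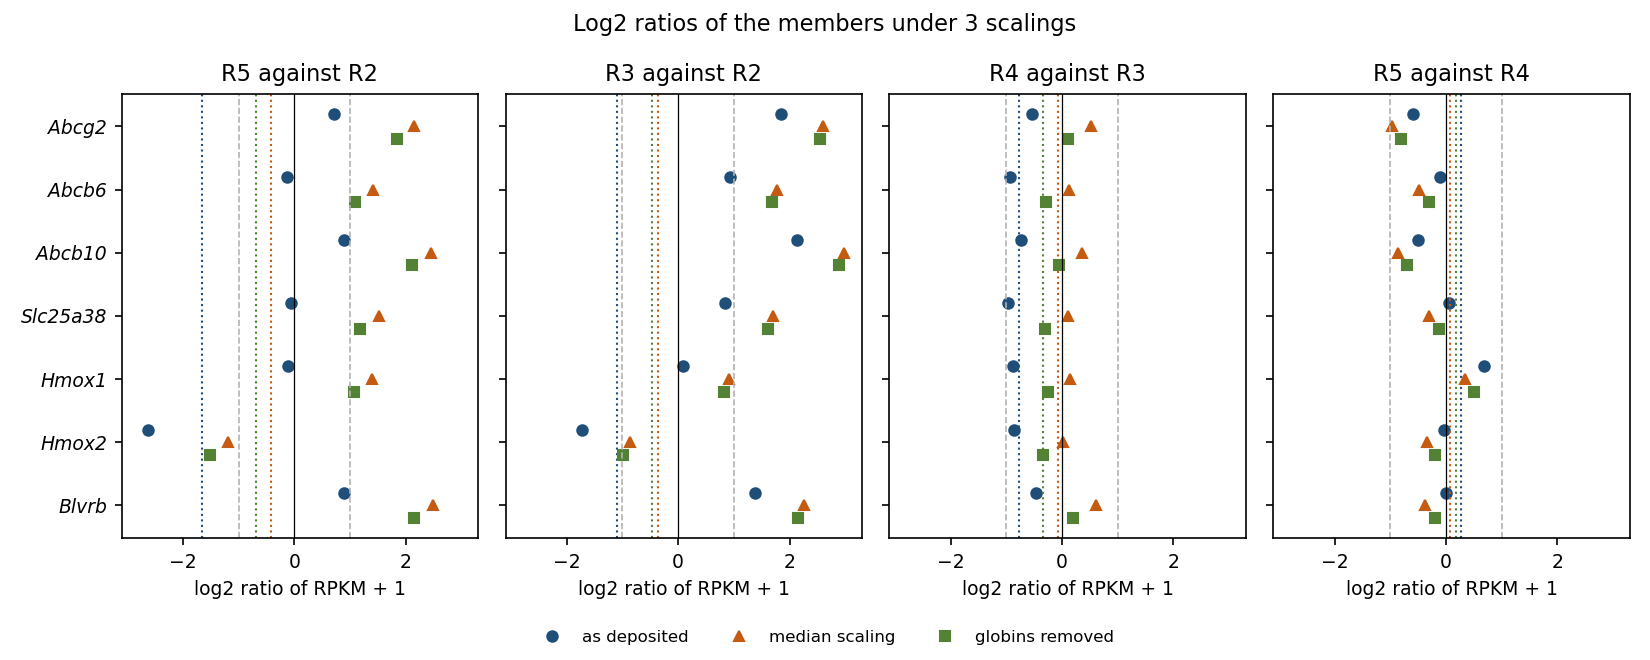
Log2 ratio of RPKM + 1 (horizontal axis) of the 7 members (rows) in 4 comparisons (panels), shown by circles as deposited, triangles with median scaling and squares with globins removed. Dotted lines give the median of all genes tested under the scaling of the same colour, and dashed lines mark 2-fold. Hmox2 lies left of 0 in R5 against R2 and R3 against R2 under all 3 scalings, and in R4 against R3 the triangles lie right of 0 while the circles lie left of it.

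The carriers were also set against the heme synthesis enzymes. As deposited, 8 of 9 enzymes were at least 2-fold higher in R3 than in R2, beside 3.81% of all genes. Their median log2 ratio was 1.65, beside -1.09 for all genes. Alas1, the enzyme of the first step in most tissues, was lower, as were 55.1% of all genes. In R5 against R2, 5 of 9 enzymes were higher and 1 lower, beside 2.74% and 76.9% of all genes. The median was 1.24, beside -1.65 for all genes. With median scaling 8 of 9 were higher and 1 lower, beside 9.42% and 13.7% of all genes. Within a library Slc25a38 stood at 0.928 times Alas2, the erythroid enzyme that uses the imported glycine, in R2, 0.112 times in R3, 0.0358 times in R4 and 0.0479 times in R5. Abcb10 stood at 0.489 times Fech, the enzyme that inserts iron, in R2, 0.455 times in R3, 0.223 times in R4 and 0.232 times in R5. With the enzymes exchanged, Abcb10 was at 0.615 times Alas2 in R2 and 0.0618 times in R5. Slc25a38 was at 0.738 times Fech in R2 and 0.180 times in R5. Levels of carrier transcripts per enzyme transcript were thus lower in R4 and R5 than in R2 for both pairs, with no scaling involved.

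Regulators of Hmox1 and sensors of heme formed a list of 11, Hmox1 included, of which 9 passed the filter. In R5 against R2 as deposited, 1 was at least 2-fold higher, 3 were lower and 5 within 2-fold, and the median was -0.27, where 76.9% of all genes were lower and their median was -1.65. The higher one was Eif2ak1, the heme-regulated kinase that lowers translation when heme is short, at 48.1 RPKM in R2, 139 RPKM in R3, 166 RPKM in R4 and 115 RPKM in R5. The lower ones were Nfe2l2, the stress factor that switches Hmox1 on, at 5.56 RPKM in R5 and 24.7 RPKM in R2, its inhibitor Keap1, at 12.5 RPKM in R5 and 44.3 RPKM in R2, and Nr1d1, a heme-binding nuclear receptor, at 0.72 RPKM in R5 and 4.49 RPKM in R2. With median scaling 4 were higher (Eif2ak1, Mafk, Mafg and Hmox1 itself) and 0 lower, beside 9.42% and 13.7% of all genes. The small Maf partners Mafk and Mafg then had log2 ratios of 2.03 and 2.14, against 0.48 and 0.62 as deposited. Bach1, the heme-sensitive repressor of Hmox1, was at 8.71 RPKM in R2, 10.01 RPKM in R3, 8.81 RPKM in R4 and 4.57 RPKM in R5.

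Other carriers and binding proteins of heme and porphyrins formed a list of 12, with 10 past the filter. As deposited, 1 was higher by 2-fold or more in R5 against R2, 5 were lower and 4 within 2-fold, with a median of -1.18, beside 2.74% higher, 76.9% lower and a median of -1.65 among all genes. Slc25a39, a mitochondrial carrier of glutathione, was the higher one at 474 RPKM in R5 and 102 RPKM in R2. The lower ones included Abcc1, Abcb8, Pgrmc1 and Pgrmc2. Abcb8, a mitochondrial transporter of the same family as Abcb10, was at 3.61 RPKM in R5 and 32.6 RPKM in R2. With median scaling 4 were higher and 2 lower, beside 9.42% and 13.7% of all genes. Then Slc48a1, which carries heme out of lysosomes, was at a log2 ratio of 2.29, Tspo, a porphyrin-binding protein of the outer mitochondrial membrane, at 1.89, the heme-binding protein gene Hebp1 at 1.26 and Abcc1 at -1.01.

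Other genes of heme breakdown and scavenging, 7 with 6 past the filter, had a median of -1.71 in R5 against R2 as deposited, with 1 at least 2-fold higher, 4 lower and 1 within 2-fold. This was near the values of all genes, of which 76.9% were lower with a median of -1.65. The lower ones were Blvra, Por, Hp and Lrp1. Hp, which encodes the hemoglobin-binding plasma protein haptoglobin, was at 9.38 RPKM in R5 and 130.6 RPKM in R2, and granulocyte markers, 10 of 10 of which were lower in R5, moved with it. Hpx, the gene of the heme-binding plasma protein hemopexin, was at 5.20 RPKM in R5 and 2.09 RPKM in R2, and the hepatocyte markers, as given above, also had a higher sum in R5. Their part in these levels was not tested. With median scaling Hpx was the 1 higher and Hp the 1 lower gene, beside 9.42% and 13.7% of all genes.

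**Figure D4:**
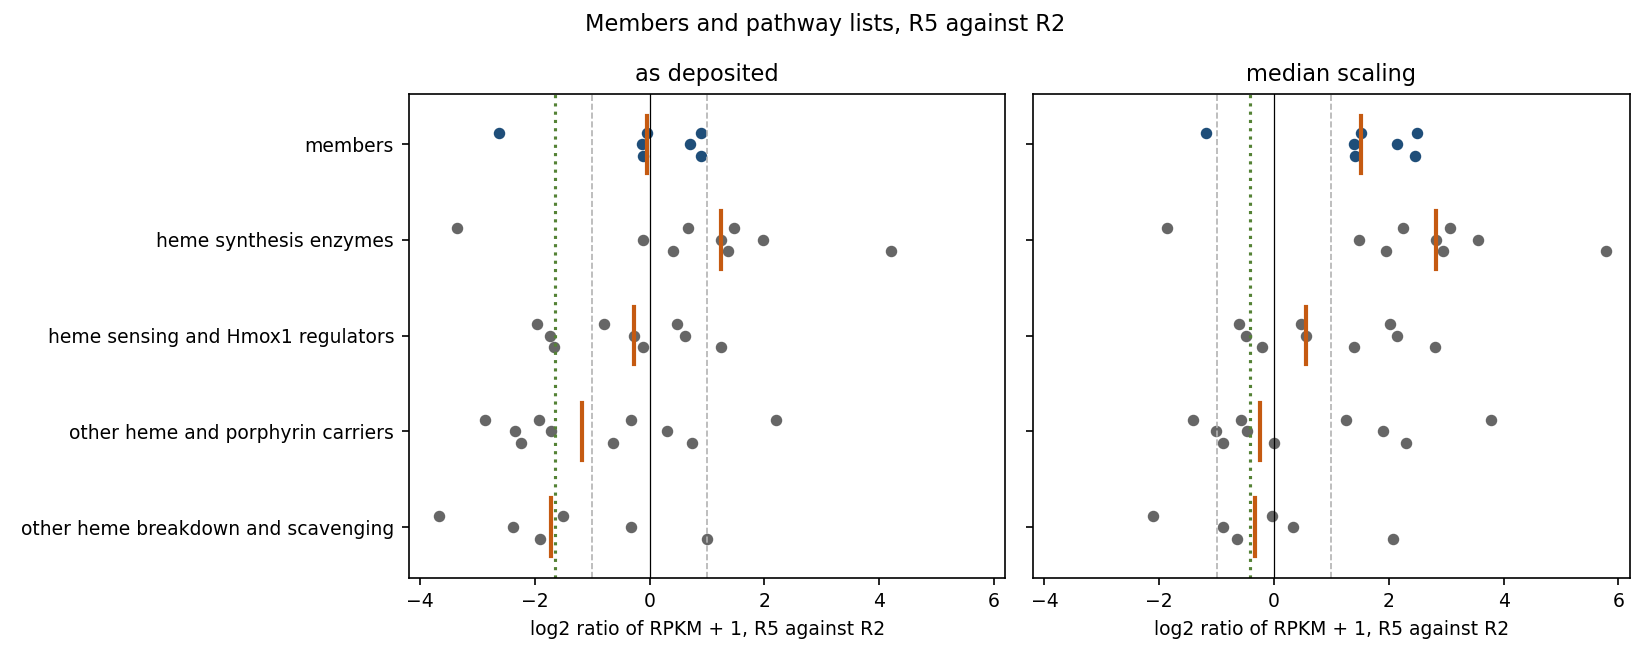
Log2 ratio of RPKM + 1 in R5 against R2 (horizontal axis) for the 7 members and the tested genes of 4 lists (rows), as deposited (left) and with median scaling (right). Each point is 1 gene, orange bars are list medians, the dotted line is the median of all genes and dashed lines mark 2-fold. The member median lies at -0.054 on the left and 1.52 on the right, with Hmox2 as the lone member below -1 in both panels.

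For each member the 2 genes with the nearest profile were taken from the 5597 genes at 10 RPKM or more in some library, by Euclidean distance of centred log2(RPKM + 1) over 4 libraries. Many genes can lie close over so few points. The nearest to Abcg2 were Mgll (0.11) and Acot11 (0.16), and the same genes were nearest to Abcb10, both at 0.21. Slc38a5 was the nearest to Abcb6 (0.045) and the second nearest to Slc25a38 (0.11), after Kif23 (0.087), and 2310003C23Rik was the second nearest to Abcb6. Hmox1 was nearest to Chmp2a (0.16) and Cdc25c (0.17), Hmox2 to Gatm (0.083) and Uhrf1bp1 (0.090), and Blvrb to Cldn13 (0.052) and Ufsp1 (0.12). Cldn13 was at 86.6 RPKM in R2, 226 RPKM in R3, 158 RPKM in R4 and 156 RPKM in R5, which follows the order of Blvrb.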

How the data were processed

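Per the labels' protocols, RNA of freshly sorted cells was enriched for polyA, made into libraries by Illumina's instructions and sequenced on a Solexa instrument. The deposited values are RPKM, 1 per gene symbol with 2 decimals, per the file headers. The genome build was mm9, per the submitters' processing notes, with aligner, counting program, annotation and gene length not given in the sources used here. From these values, log2 ratios of RPKM + 1 were computed with pandas 2.3.3 and numpy 2.4.6 for genes at 1 RPKM or more in at least 1 of the 4 libraries, and genes were called at 2-fold. Median scaling used the 2745 genes at 5 RPKM or more in every library, and the other rescaling removed 8 globin genes.

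Depth came from the step size of the values: genes with almost no countable bases gave the RPKM of 1 read over 1 base. For R3 this step was doubled, because 89.2% of the reads it gave per gene were even numbers, and 47.7% afterwards. Reads of a member are that depth times its RPKM and the length of its longest protein-coding transcript in GENCODE release M21, so they are approximate. The 2-fold calls and the median scaling were tested on simulated data with counting noise. The depth estimate and a shift in globin share were not part of that test. Members and lists were chosen with earlier results of these data known. The genes named are all members, list genes past 2-fold in R5 against R2 as deposited or with median scaling, and the 2 nearest profiles per member, except that 1 list gene is not reported here. Hmox1 regulators within 2-fold and single markers named beside a result were chosen after their values were seen. Pseudocounts of 0.1 and 5 RPKM, no filter and a filter of 5 RPKM were the other alternatives.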

Additional observations from a re-analysis of the deposited data

How the results depend on the processing

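Scaling decided the counts of members in R5 and R3 against R2 and in R5 against R3. By either rescaling, median or globins removed, 6 members were higher in R5 than in R2 and 5 in R3 than in R2, against 0 and 3 as deposited, and 0 were lower in R3 than in R2, against 1. Median scaling turned the sign of 11 of 28 member ratios and removing globins that of 6 of 28, none of them past 2-fold as deposited. In R4 against R3 all 7 turned with median scaling. A pseudocount of 0.1 RPKM left 1 member lower in R4 than in R3 (Hmox2), against 0. Pseudocounts turned 0 of 28 signs, and neither filter changed a count. Counting the synonyms of Flvcr1 and Flvcr2, chosen after seeing the data, gave 2 lower members in R5 and 2 in R3 than in R2, against 1 each. Setting R5 against R3 in place of R2 gave 3 lower members as deposited and 0 under either rescaling. No paired analysis was possible because each population has 1 library, and for the same reason no replicate could be left out. Depth limits Mfsd7c, and Mfsd7b in R4 and R5, while the other values are limited by the single libraries and the unknown gene lengths.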
